A study of Mus musculus with 6 samples.

Results

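Each of the 6 arrays of this mouse study carried RNA from antral oocytes in the green channel (Cy3) and RNA from a pool of cultured cells in the red channel (Cy5). The comparison described here was made within each array, between those channels. All 6 arrays entered it, with the same 42006 probes on each. The Cy3 samples fell into 3 groups of 2 pools. The oocyte group held 2 pools of 10 oocytes. The SN group held 2 pools of 50 oocytes with a surrounded nucleolus, and the NSN group held pools of 41 and 44 oocytes with a nucleolus that was not surrounded. SN and NSN cells had been told apart by staining their chromatin with Hoechst33342. The labels' protocol describes mice of 39 weeks, both wild type and Matertm/tm, and no label says which genotype gave which pool, so genotype cannot be assigned to a group. The characteristics fields name the Cy3 material embryonic stem cells of embryo stage, whereas titles and source names call it oocytes, and the titles were followed here.

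The Cy5 material was the same for every array. RNA of 11 cell lines was pooled in equal parts, from embryo, embryo fibroblast, kidney, liver, alveolar macrophage, B and T lymphocytes, mammary gland, muscle myoblast, skin and testis. That pool, sold as Universal Mouse Reference RNA, was mixed 2 to 1 with RNA of an embryonic stem cell line. The labels call the line 129ES, the series' design text MC1. A tube of 2.5 µg was labelled with the same kit. The oocyte RNA went through 2 rounds of linear amplification, and the labels state no such number for the reference. No array had the dyes exchanged. RNA source, amplification and dye therefore cannot be told apart in any ratio of Cy3 to Cy5 given here. The oocyte arrays lay on 2 slides of their own and the SN and NSN arrays shared another slide, so the oocyte group cannot be told apart from its slides or its smaller pools. Whether both pools of a group were drawn from different mice is not stated, so every p-value here rests on pool-to-pool spread that may be technical.

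A fully grown mouse oocyte is a single very large cell that stores messenger RNA for use after transcription has stopped. Transcription stops as the chromatin condenses around the nucleolus, the change that separates NSN from SN oocytes. Stored transcripts are kept partly by control of their poly(A) tails, and many oocyte genes, such as those of the zona pellucida and of the cytoplasmic lattices, have little or no expression in somatic cell lines. Universal reference pools are built from many cell types so that most genes of an array give some red signal.

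The probes are 60 bases long and carry catalogue numbers without gene names in the files, so markers of oocytes, follicle cells or stem cells could not be read and the labels could not be checked against them. The results are given by probe. For the probes at the ends of the comparison, the designed sequences are shown first, because they identify what was measured where a gene name cannot. They are written 5′ to 3′ in lower case, with the poly(A) signal AATAAA in capitals where a probe holds it. The probes with the highest and the lowest ratio among those measured in both channels, examples of the brightest found in one channel and not in the other, and examples of the brightest of each channel were these:
Z00009537-1, highest ratio: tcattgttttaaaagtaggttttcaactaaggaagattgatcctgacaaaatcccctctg
Z00025999-1, second highest ratio: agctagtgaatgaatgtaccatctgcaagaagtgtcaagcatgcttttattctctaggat
Z00074503-1, lowest ratio: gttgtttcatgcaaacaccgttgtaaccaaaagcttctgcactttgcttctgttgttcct
Z00009495-1, second lowest ratio: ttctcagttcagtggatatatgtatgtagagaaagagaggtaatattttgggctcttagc
Z00018699-1, Cy3 without Cy5: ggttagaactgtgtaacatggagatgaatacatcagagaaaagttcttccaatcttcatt
Z00070459-1, Cy5 without Cy3: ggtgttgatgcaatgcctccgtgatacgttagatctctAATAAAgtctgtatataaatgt
Z00074674-1, brightest in Cy3: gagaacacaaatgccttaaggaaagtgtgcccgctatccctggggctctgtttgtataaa
Z00060816-1, bright in Cy5 on every array: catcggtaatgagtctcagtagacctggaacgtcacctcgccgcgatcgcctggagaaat

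No probe spot was saturated on any array, and 0 to 9 spots per array were left out as uneven. The mean Cy3 signal over probes was 2110 and 1417 scanner units on the oocyte arrays and between 4719 and 5361 on the SN and NSN arrays. The mean Cy5 signal ran the other way, 5341 and 4595 on the oocyte arrays and between 3464 and 3932 on the others. Among probes detected in both channels, the median background-subtracted ratio before dye normalization was -2.47 and -2.85 (log2 Cy3 over Cy5) on the oocyte arrays and between -0.45 and -0.24 on the others. After the scanner software's dye normalization these medians lay between 0.08 and 0.34. The arrays were thus brought onto a common centre by a shift that was more than 2 log2 units larger on the oocyte arrays, and the balance of higher and lower probes given below rests on that shift.

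Most probes that the oocyte RNA lit were also lit by the reference. A probe is called detected in a channel where the scanner software marked it well above background. On oocyte arrays 1 and 2, 23734 and 22003 probes were detected in Cy3, against 29421 and 28660 in Cy5. On SN arrays 1 and 2, Cy3 detected 29775 and 27257 probes and Cy5 29456 and 29981. On NSN arrays 1 and 2, Cy3 detected 27168 and 27728 probes and Cy5 28731 and 28757. Cy3 detected fewer probes than Cy5 on every array except SN array 1. The Cy3 counts of the oocyte arrays lay below those of every SN and NSN array, while the Cy5 counts lay between 28660 and 29981 on all 6 arrays. Over the 6 arrays the mean difference was -2890 probes (Cy3 minus Cy5), with a p of 0.0625 in the two-sided exact permutation test of sign flips. The smallest p that 6 arrays allow is 0.03125. With the scanner software's other mark, a signal that is positive and significant against background, the mean difference was -1357 (exact permutation p = 0.2188). By group it was then -3816 in oocyte, -62 in SN and -193 in NSN, against -6172, -1202 and -1296 with the first mark.

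Detection in one channel alone was lopsided in the oocyte pools. There, 7475 ± 636 probes (SD, n = 2) were detected in Cy5 without Cy3, and 1303 ± 50.2 in Cy3 without Cy5. In SN these numbers were 3940 ± 1155 and 2738 ± 996 (SD, n = 2), and in NSN they were 4129 ± 287 and 2833 ± 90.5 (SD, n = 2). Of the probes detected in Cy3, between 88.4% and 94.4% were detected in Cy5 on the same array. Of those detected in Cy5, 76.1% and 72.4% were detected in Cy3 on the oocyte arrays, and between 84.1% and 89.4% on the SN and NSN arrays. Fewer detected probes and a dimmer Cy3 channel came together on the oocyte arrays, and the part of the dimmer channel in these counts was not tested.

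**Figure D1:**
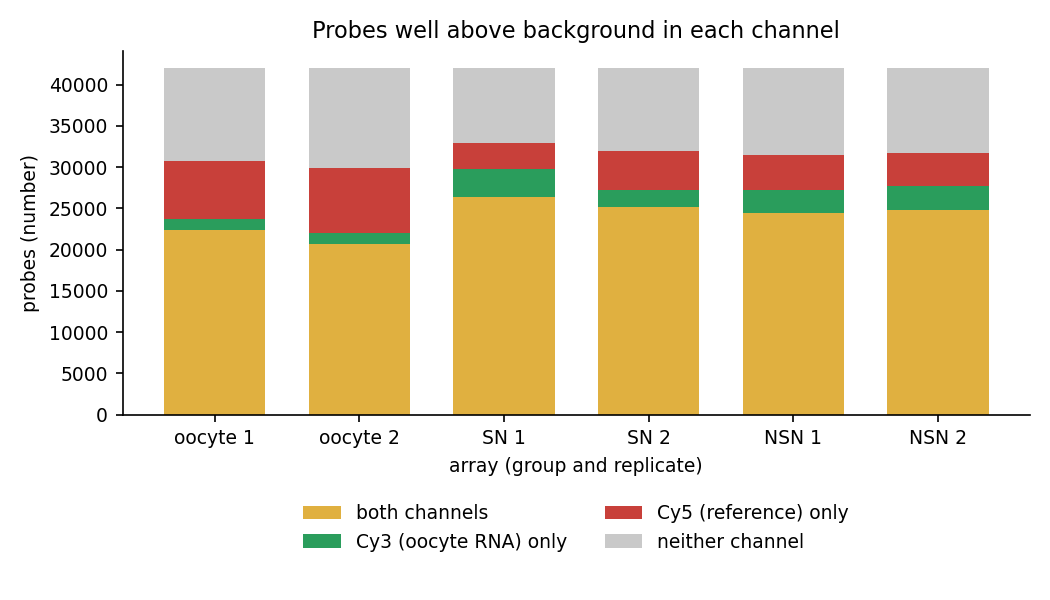
Number of probes (vertical axis) well above background in both channels, in Cy3 alone, in Cy5 alone or in neither, for each of the 6 arrays (horizontal axis); each bar is 1 array and sums to 42006 probes. The segment for Cy5 alone is 7025 and 7924 probes on the oocyte arrays and 3123 to 4757 on the SN and NSN arrays.

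A core of 19299 probes, 45.9% of all, was detected in both channels on all 6 arrays. Another 7228 probes (17.2%) were detected in neither channel on any array. The oocyte RNA gave 428 probes (1.02%) that were detected in Cy3 on all 6 arrays and in Cy5 on none. The reverse class, detected in Cy5 on all 6 arrays and in Cy3 on none, held 1688 probes (4.02%). Some probes were detected in Cy3 on both arrays of a group, and in Cy5 on none of the 6. They numbered 552 for the oocyte pools (1.31%), 1351 for SN (3.22%) and 1305 for NSN (3.11%). Of these, 494 (1.18% of all probes) were detected in Cy3 on all 4 SN and NSN arrays and on neither oocyte array. Another 34 (0.081%) were detected on both oocyte arrays and on no SN or NSN array.

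The 428 probes found in Cy3 alone were dimmer than other detected probes, but many lay far above the reference's limit of detection. Their median Cy3 level was 9.14 (log2 processed intensity) in the oocyte pools, 8.59 in SN and 8.73 in NSN, against medians over all detected probes of 11.26, 10.23 and 10.23. Because the dim channel gives only a limit, each ratio was computed against the higher of that channel's lowest well measured signal and the probe's own value. By that limit 412 of the 428 were at least 4-fold higher in Cy3 in the oocyte pools, 349 in SN and 362 in NSN. At least 16-fold was reached by 215, 209 and 206. The 1688 probes of the reverse class had lower limits, with medians of 0.94, 2.08 and 1.78 (log2 Cy5 over Cy3) in oocyte, SN and NSN. At least 16-fold was reached there by 55, 226 and 158 probes.

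The brightest members of each class stood well apart from these medians. Probe Z00018699-1 had Cy3 levels of 15.23 and 14.51 on the oocyte arrays, 15.71 and 15.89 on SN, and 15.66 and 15.76 on NSN. Its Cy5 level never exceeded 4.16 and was not well above background. By processed signal it was at least 862-fold higher in Cy3 in the oocyte pools, 2222-fold in SN and 1900-fold in NSN. All 6 arrays showed it high in Cy3, with both oocyte arrays below every SN and NSN array. Probe Z00076627-1 was at least 1863-fold higher in oocyte, 839-fold in SN and 809-fold in NSN. Among the reverse class, Z00070459-1 had Cy5 levels between 13.49 and 13.79 on the 6 arrays and was at least 124-fold lower in Cy3 in oocyte, 383-fold in SN and 316-fold in NSN. It is the probe printed above with a poly(A) signal. Z00050494-1 was at least 153-fold, 509-fold and 438-fold lower in the same order. These limits hold for the processed signal only. The fitted mean of Z00018699-1 over the groups was 12.07 (log2) with it, and 8.50, 9.85 and 8.73 with normexp and loess, with centred background-subtracted signal and without centring. In the same order Z00076627-1 went from 12.11 to 8.28, 9.33 and 8.21, Z00050494-1 from -8.97 to -5.37, -8.70 and -9.82, and Z00070459-1 from -8.33 to -4.80, -8.22 and -9.34.

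By the processed intensities, signal was spread over more probes in the oocyte RNA than in the reference. The 100 brightest probes held 16.9% and 19.5% of the summed Cy3 signal on the oocyte arrays, 9.61% and 9.87% on SN, and 9.92% and 9.40% on NSN. The 100 brightest Cy5 probes held 21.9% and 23.5% on the oocyte arrays, 17.4% and 17.0% on SN, and 18.0% and 17.7% on NSN. The Cy3 share was below the Cy5 share on 6 of 6 arrays. The mean difference was -6.70 percentage points, with a two-sided exact sign-flip permutation p of 0.03125, the smallest that 6 arrays can give. To reach 50% of summed signal took 638 ± 51.6 Cy3 probes in the oocyte pools (SD, n = 2), 1058 ± 11.3 in SN (SD, n = 2) and 1082 ± 31.8 in NSN (SD, n = 2). It took 402 ± 29.0, 646 ± 2.12 and 606 ± 14.9 Cy5 probes in the same order (SD, n = 2 each). Groups of 2 arrays cannot reach a p of 0.05 in such a test.

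That order did not hold in the oocyte pools before dye normalization. With background-subtracted signal, the 100 brightest probes of the oocyte arrays held 22.6% and 26.3% of Cy3 signal against 16.8% and 17.8% of Cy5 signal, so the Cy3 share was the larger by 7.18 points on average. On the SN and NSN arrays the Cy3 share stayed below the Cy5 share, by 5.10 to 6.12 points. The mean over 6 arrays was then -1.40 points, with a sign-flip permutation p of 0.625. The Gini coefficient, which measures inequality over all probes, turned on all 6 arrays. It was lower in Cy3 by processed signal (mean difference -0.013) and higher in Cy3 by background-subtracted signal (mean difference 0.028), each with an exact permutation p of 0.03125. Which channel was the more concentrated thus depended on the dye normalization and on the measure. In both signals the Cy3 share of the oocyte arrays was above that of every SN and NSN array. In the authors' deposited value table, which covers 25030 probes, the Cy3 shares were 16.1% and 17.9% on the oocyte arrays and 15.2% to 16.4% on the others, and the groups overlapped. Over those same probes the processed signal gave 20.03% and 22.94% on the oocyte arrays and 11.75% to 12.48% on the others. The reference shares of the 6 arrays lay between 15.7% and 17.8% before dye normalization and between 17.0% and 23.5% after it.

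**Figure D2:**
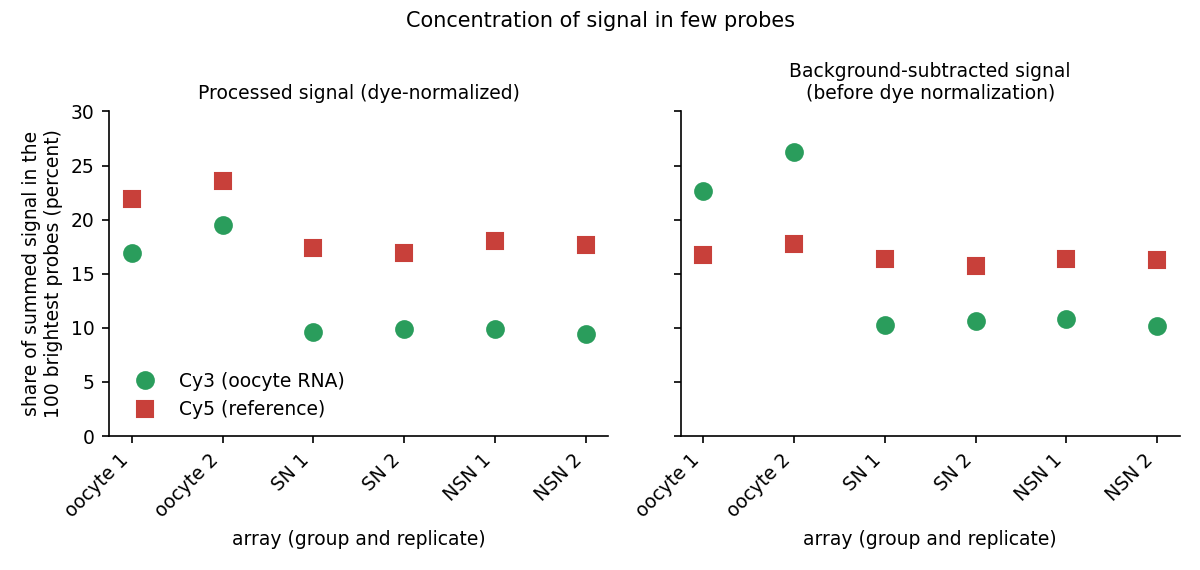
Share of summed signal held by the 100 brightest probes (percent, vertical axis) in Cy3 and Cy5 of each array (horizontal axis), from processed signal (left) and from background-subtracted signal before dye normalization (right); each point is 1 array. Cy3 lies below Cy5 on all 6 arrays at left, and above it on the 2 oocyte arrays at right (22.6% and 26.3% against 16.8% and 17.8%).

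The 100 brightest probes of the oocyte RNA and of the reference were almost entirely different on each array. On a single array the lists of 100 brightest shared 0 probes on the oocyte arrays and 0 to 2 on the SN and NSN arrays. Unrelated lists of 100 from 42006 probes would also share few or none, so these counts do not show that the lists avoid each other. Across arrays, Cy5 lists of the oocyte arrays shared 2 to 8 probes with Cy3 lists of SN and NSN arrays. The Cy3 lists of the oocyte arrays shared 89 probes with each other, the SN and NSN lists shared 84 to 94 among themselves, and an oocyte list shared 32 to 42 with an SN or NSN list. The Cy5 lists came from the same reference on every array. They shared 85 probes between the oocyte arrays and 87 to 94 among SN and NSN arrays, but 57 to 73 across these sets. Before dye normalization the Cy5 lists shared 65 to 78 across these sets, and the Cy3 lists 36 to 42. Across slides the lists of the unchanged reference thus also differed, though less than those of the oocyte RNA. Probes that overlap in sequence recur in these lists: of the 100 brightest by mean rank over the arrays, 10 Cy3 probes and 24 Cy5 probes shared 25 or more bases with another of the list.

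Probes that stayed in the lists on all 6 arrays were strongly biased to their own channel and still measured in the other. They were chosen by the signal of that channel, which enters the ratio. A bias to it is therefore largely fixed by the choice, and the ratios are a description. Of the Cy3 list, 30 probes were among the 100 brightest on every array. Their median ratio was 4.98 (log2 Cy3 over Cy5), from 1.99 to 11.19, and 29 were at least 4-fold higher in Cy3. Of the Cy5 list, 52 probes were among the 100 brightest on every array, with a median of -4.63 and a range from -12.27 to -2.90. All 30 and all 52 were detected in both channels on all 6 arrays.

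The named probes of each list were chosen for the best mean rank over the 6 arrays, so a steady high rank follows from that choice. Z00074674-1, printed above, ranked 5 and 2 in Cy3 on the oocyte arrays, 6 and 4 on SN and 2 and 4 on NSN. Its ratio was 7.59 and 7.54 on the oocyte arrays, 7.48 and 7.40 on SN, and 7.50 and 7.46 on NSN. No group stood apart in that ratio, and the test of SN and NSN against the oocyte pools gave an adjusted p of 0.524 in limma. Z00049548-1 ranked 1 and 5 in Cy3 on the oocyte arrays. Its ratio was 11.64 ± 0.15 in oocyte (SD, n = 2), 10.79 ± 0.03 in SN (SD, n = 2) and 10.74 ± 0.16 in NSN (SD, n = 2). By processed signal the oocyte pools were the higher ones there, with a difference of -0.88 for SN and NSN minus oocyte (limma, adjusted p = 0.0083). Both of these group comparisons rest on the larger shift of the oocyte arrays in dye normalization. The limma p does not measure that shift, and the differences under the other normalizations are not given.

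The 2 brightest reference probes, by mean rank, were less depleted in SN and NSN than in the oocyte pools. Z00060816-1 ranked between 3 and 7 in Cy5 on every array. Its Cy3 level was 14.02 and 14.38 (log2 processed intensity) on the oocyte arrays, 16.90 and 16.93 on SN, and 16.13 and 16.99 on NSN. The ratio was -7.18 and -6.85 in oocyte, -3.37 and -3.37 in SN, and -4.14 and -3.22 in NSN. The oocyte arrays lay below all others, by 3.49 ± 0.31 log2 units (SE; limma, adjusted p = 0.00099). Z00004748-1 ranked between 1 and 11 in Cy5 and differed by 3.50 ± 0.36 in the same direction (SE; limma, adjusted p = 0.0016). Part of each gap lay in Cy5. The Cy5 level of Z00060816-1 was 21.21 and 21.23 on the oocyte arrays and 20.21 to 20.30 on the others. For Z00004748-1 it was 21.30 and 20.97 on the oocyte arrays and 20.08 to 20.43 on the others. Over the 3 other normalizations the mean ratio ran from -5.80 to -3.31 for Z00060816-1, from -6.17 to -3.77 for Z00004748-1, from 7.09 to 8.92 for Z00074674-1 and from 10.15 to 11.68 for Z00049548-1. These ranges are of the mean over groups, and the gaps between groups are given for processed signal only.

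Ratios to the reference spread over a wide range in every group. Among probes detected in either channel, the standard deviation of the log2 ratio lay between 2.96 and 3.11 on the 6 arrays. The 1st and 99th percentiles were -6.59 and 7.85 on oocyte array 1 and -6.44 and 7.84 on oocyte array 2. They lay between -6.53 and -6.27, and between 7.44 and 7.53, on the SN and NSN arrays. At least 4-fold higher in Cy3 were 22.3% and 22.0% of probes on the oocyte arrays and 22.1% to 23.8% on the others. At least 4-fold lower were 32.1% and 33.0% on the oocyte arrays and 26.2% to 29.1% on the others. The lower tail was the larger on 6 of 6 arrays, by 6.69 points on average (two-sided exact sign-flip permutation, p = 0.03125). At 2-fold it was the larger on 5 of 6 arrays, by 5.18 points (exact permutation p = 0.0625). At 16-fold the tails were closer, 8.30% to 9.26% higher against 9.26% to 10.8% lower. The lower tail was still the larger on 6 of 6 arrays, by 1.13 points on average, with the same p of 0.03125 by exact permutation.

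The balance of the tails depended on which probes were counted and on the normalization. Among probes detected in both channels, the 4-fold tails differed by -0.059 points (higher minus lower; sign-flip permutation p = 0.9375). The 2-fold tail was then larger on the higher side on 6 of 6 arrays, by 3.47 points (exact permutation p = 0.03125). The 16-fold tail was then larger on the higher side on 6 of 6 arrays, by 1.32 points (exact permutation p = 0.03125). On oocyte array 1, 9.69% of such probes were at least 16-fold higher and 6.78% lower, and on oocyte array 2 the shares were 9.98% and 6.61%. On the 4 SN and NSN arrays they were 7.12% to 7.84% and 6.71% to 7.52%. With another background correction and normalization (normexp and loess) the higher tail was the larger at 4-fold too, by 3.57 points.

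**Figure D3:**
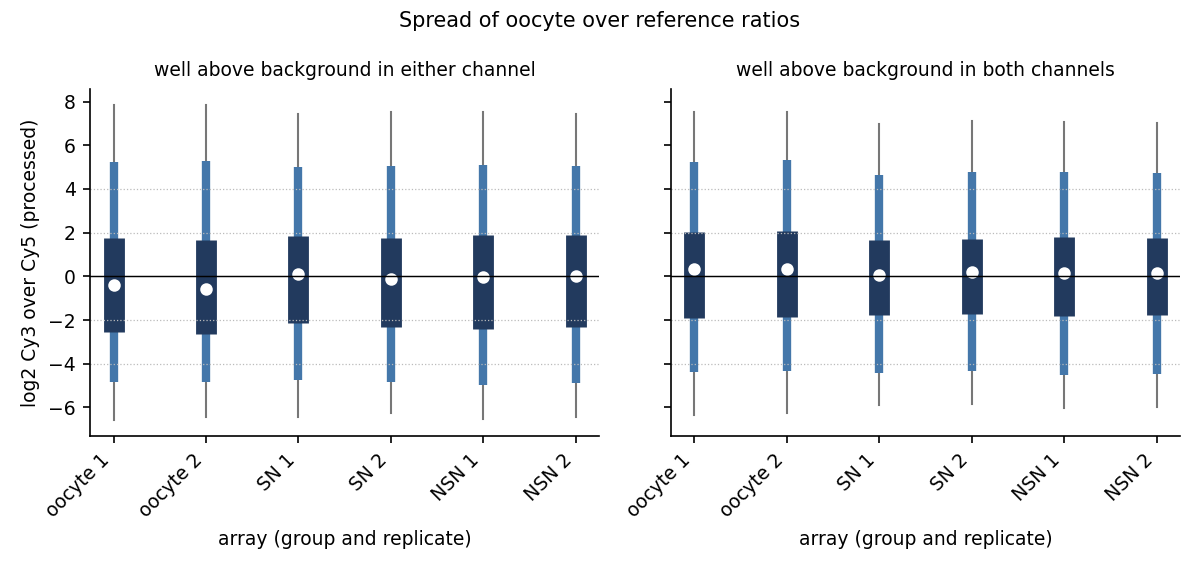
Log2 ratio of Cy3 over Cy5 processed signal (vertical axis) on each array (horizontal axis), over probes detected in either channel (left) and in both (right); white points are medians, thick bars the 25th to 75th percentiles, medium bars the 5th to 95th and thin lines the 1st to 99th. Medians on the oocyte arrays move from -0.42 and -0.56 at left to 0.32 and 0.34 at right.

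By processed signal, most tested probes in each group differed from the reference. A probe was called where its group mean was at least 2-fold from the reference and its limma p, adjusted by Benjamini-Hochberg over the 32584 probes tested, was under 0.05. In the oocyte pools 9828 probes were higher in Cy3 (30.2% of those tested) and 13068 lower (40.1%). In SN 10900 were higher (33.5%) and 11703 lower (35.9%), and in NSN 11120 were higher (34.1%) and 11953 lower (36.7%). The median called probe was 6.37-fold higher or 7.03-fold lower in oocyte, 5.82-fold or 7.39-fold in SN, and 6.06-fold or 7.77-fold in NSN. The calls in the oocyte pools moved with scaling. With normexp and loess 7461 were higher and 5841 lower, so most of the 32584 probes were not called there. With background-subtracted signal centred on each array's median the counts were 12192 and 11641, and without centring 2920 and 25520. Without centring 3199 of the 9828 higher calls became lower calls and 2919 stayed higher. With centring 559 of the 13068 lower calls became higher. No SN or NSN call changed sides under these settings. Without centring SN gave 8571 higher and 13154 lower, and NSN 8502 and 13307.

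The 3 comparisons share the reference RNA, so calls in more than one of them are not independent evidence. How far single arrays differed can be read from each probe's own ratios. Between arrays of 1 group the log2 ratio of a probe differed by a median of 0.26 to 0.31. Between an SN and an NSN array the median was 0.28 to 0.38, and between an oocyte array and an SN or NSN array it was 1.14 to 1.31.

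The probes named for their ratios, called in the same direction in each group, lay far from the reference in every pool. Z00009537-1, printed above, had ratios of 12.37 and 12.99 on the oocyte arrays, 11.97 and 11.84 on SN, and 11.98 and 12.33 on NSN. Its mean over the 3 groups was 12.25 ± 0.11 (SE), a 4858-fold excess in Cy3 (limma, adjusted p = 1.2e-06). The oocyte and SN or NSN ratios differed by an amount that did not pass the test (limma, adjusted p = 0.075). Z00025999-1 had ratios of 12.46 and 12.71 on the oocyte arrays, 10.63 and 10.55 on SN, and 10.43 and 10.33 on NSN, and the oocyte pools stood above the others. At the other end, Z00074503-1 had ratios of -11.61 and -10.47 on the oocyte arrays, -12.79 and -12.67 on SN, and -13.06 and -13.01 on NSN, and the oocyte pools were the less depleted. Its mean was -12.27 ± 0.17 (SE; limma, adjusted p = 1.2e-06). Z00009495-1 averaged -10.53 ± 0.07 (SE), with the oocyte pools again less depleted than SN and NSN. All 4 probes were detected in both channels on all 6 arrays. Their sizes moved with the normalization: the mean of Z00009537-1 was 10.46 with normexp and loess (1404-fold) and 11.04 without centring. Over the 3 other normalizations Z00025999-1 ran from 10.18 to 11.63, Z00074503-1 from -12.96 to -11.61 and Z00009495-1 from -11.77 to -9.44. These ranges are of the mean over groups. By processed signal, SN and NSN minus oocyte was -2.10 for Z00025999-1, -1.84 for Z00074503-1 and -1.78 for Z00009495-1. Such differences rest on the larger shift of the oocyte arrays in dye normalization. The order of the groups under the other normalizations is not given.

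Some probes lay on opposite sides of the reference in different groups. Higher than the reference in SN and in NSN but lower in the oocyte pools were 835 probes, 2.56% of those tested. Of these, 405 were detected in both channels on all arrays. The reverse held for 300 probes (0.92%), 252 of them detected throughout. Between SN and NSN such crossings were few, 15 probes (0.046%) higher in SN and lower in NSN and 3 (0.0092%) the other way. These probes were chosen by calls to opposite sides of the reference, which fixes a difference between the groups, so no test of that difference is given. Membership depended on the processing: with normexp and loess the classes held 160 and 156 probes, of which 143 and 119 were among the 835 and 300. With background-subtracted signal centred on each array they held 940 and 304, of which 493 and 162 were kept. Without centring they held 3018 and 15, of which 636 and 4 were kept.

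In these probes the change in level lay in Cy3. Over all tested probes, the median change from oocyte arrays to SN and NSN arrays was -0.52 in Cy3 and -0.29 in Cy5 (log2 processed intensity). Over the 835 probes it was 4.46 in Cy3 and -0.15 in Cy5. Over the 300 it was -4.05 in Cy3 and -0.31 in Cy5. The ratio chose these probes, so the values are a description.

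The probes that crossed furthest were these, shown because their Cy3 levels lie furthest apart between the groups:
Z00062375-1, higher in SN and NSN: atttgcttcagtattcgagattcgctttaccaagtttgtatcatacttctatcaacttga
Z00075332-1, higher in SN and NSN: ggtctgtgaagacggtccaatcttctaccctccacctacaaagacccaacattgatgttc
Z00015563-1, higher in oocyte pools: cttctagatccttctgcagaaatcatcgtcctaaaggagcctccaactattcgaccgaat
Z00070802-1, higher in oocyte pools: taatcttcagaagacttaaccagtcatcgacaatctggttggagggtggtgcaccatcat

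Z00062375-1 had Cy3 levels of 9.66 and 10.43 on the oocyte arrays, 17.85 and 18.22 on SN, and 18.02 and 17.90 on NSN. Its Cy5 level stayed between 13.73 and 14.14. The ratio went from -4.03 ± 0.63 in oocyte (SD, n = 2) to 4.08 ± 0.21 in SN (SD, n = 2) and 4.11 ± 0.09 in NSN (SD, n = 2). For Z00075332-1 the ratio was -4.33 ± 0.05 in oocyte, 2.91 ± 0.21 in SN and 2.77 ± 0.02 in NSN (SD, n = 2 each). Its Cy5 level was not steady: 17.46 and 17.34 on the oocyte arrays and 15.64 to 15.82 on the others. Z00015563-1 had Cy3 levels of 15.02 and 14.94 on the oocyte arrays and 7.38 to 8.18 on the others, with Cy5 between 11.07 and 11.93. Z00070802-1 had Cy3 levels of 14.36 and 14.25 on the oocyte arrays and 6.44 to 7.85 on the others. None of these 4 probes had oocyte and SN or NSN ratios that overlapped, as their choice required. Over the 3 other normalizations the difference of SN and NSN from oocyte ran from 6.91 to 12.27 for Z00062375-1, 6.62 to 9.87 for Z00075332-1, -7.02 to -4.71 for Z00015563-1 and -6.42 to -4.11 for Z00070802-1.

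**Figure D4:**
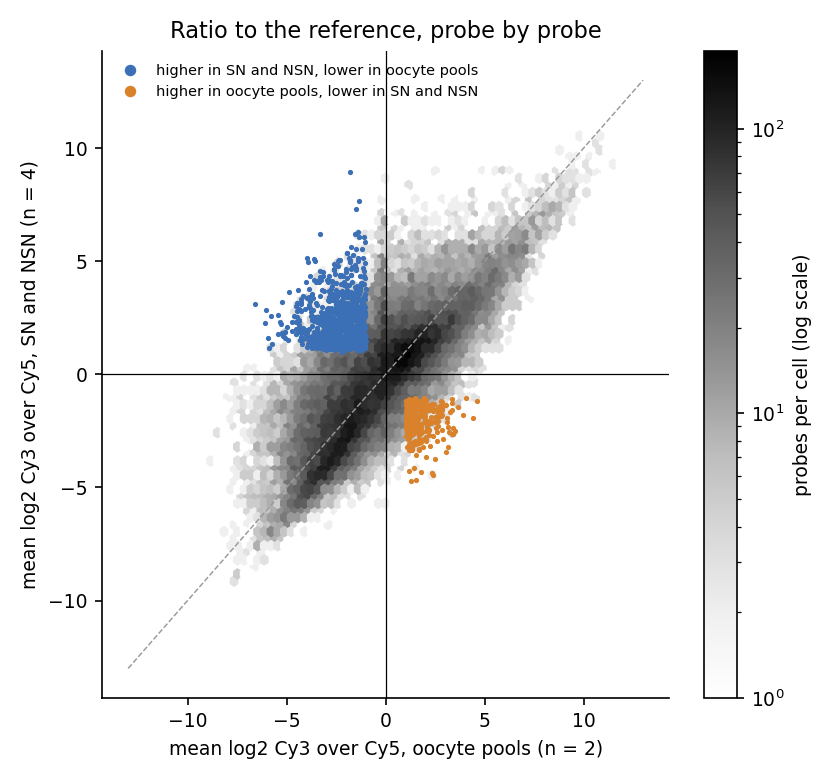
Mean log2 ratio of Cy3 over Cy5 in the oocyte pools (horizontal axis, n = 2) against the mean of the SN and NSN arrays (vertical axis, n = 4) for 32584 probes, shaded by the number of probes per cell on a log scale; the dashed line marks equal ratios. Blue points are the 835 probes higher than the reference in SN and NSN and lower in the oocyte pools, orange points the 300 probes the other way.

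Probes higher in oocyte RNA differed from the others in average base composition, without a trait that all of them shared. Over the mean ratio of the 3 groups, probes at least 16-fold lower in Cy3 had on average 1.34 CpG dinucleotides per probe, those within 2-fold 1.05, and those at least 16-fold higher 0.66. The share of probes with no CpG was 35.6%, 42.7% and 55.7% in these classes, and the median GC content 45%, 45% and 40%. The 428 probes found in Cy3 alone had a median GC content of 38.3% and 0.61 CpG per probe, against 43.3% and 1.11 for the 1688 found in Cy5 alone and 43.3% and 0.99 over all probes. The fall in CpG from the lowest to the highest class was seen in each of the 3 groups. It was also seen under every normalization tried, and it was larger (1.55 against 0.66) among probes detected in both channels on all arrays. Across probes within an array, which are not independent replicates and share channel, depth and array, the correlation of the ratio with GC content was weak (Pearson's r from -0.17 to -0.10). The Cy3 level alone gave -0.16 to -0.12 and the Cy5 level -0.05 to -0.03. The part of base composition in labelling or hybridization was not tested.

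The poly(A) signal AATAAA, searched on the printed strand only, was found in 11.97% of probes at least 16-fold higher in Cy3, 7.41% of those within 2-fold and 5.52% of those at least 16-fold lower, over the mean of the groups. Its share over all tested probes was 7.45%. The oocyte pools differed at the low end, where 9.31% of probes at least 16-fold lower held the signal, against 4.42% in SN and 4.98% in NSN; that difference was not tested. The reverse complement TTTATT was found in 4.47%, 3.17% and 2.80% of the same 3 classes.

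**Figure D5:**
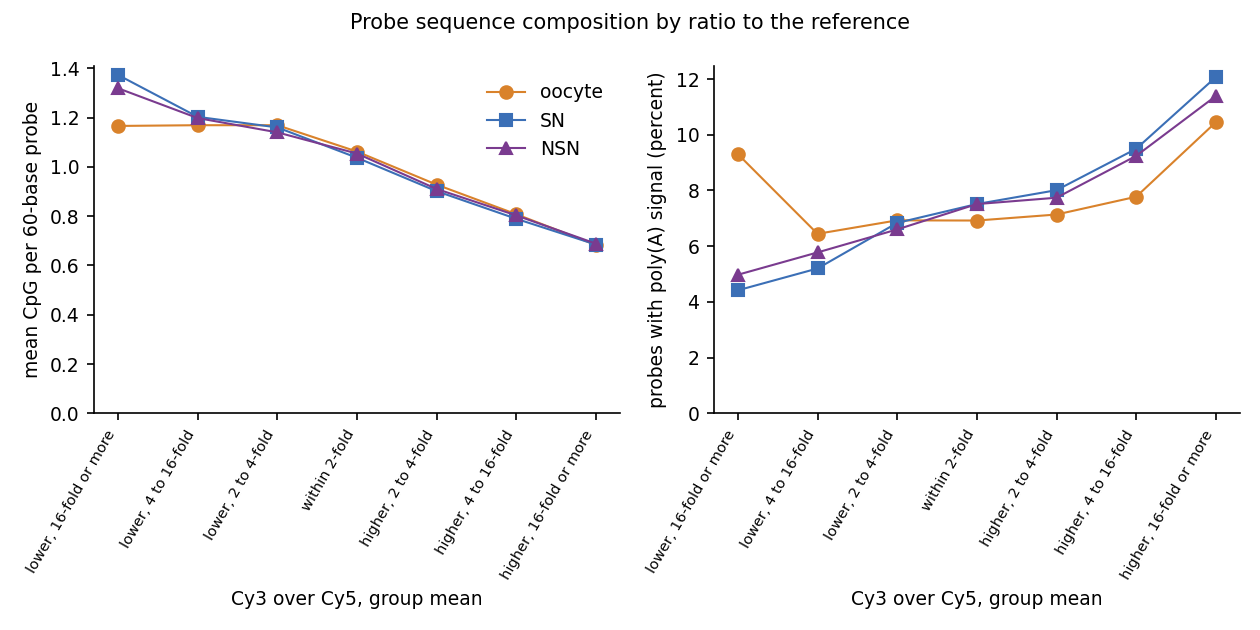
Mean number of CpG dinucleotides per probe (left) and percent of probes with the poly(A) signal AATAAA (right), by class of the group's mean ratio of Cy3 over Cy5 (horizontal axis), for oocyte, SN and NSN; each point is all tested probes of 1 class in 1 group. CpG falls from 1.17 to 0.68 in the oocyte pools, from 1.37 to 0.68 in SN and from 1.32 to 0.69 in NSN.

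Probes that overlap in sequence gave like ratios. Among 1460 pairs of probes that shared 25 or more bases, 626 had both probes detected in both channels on all 6 arrays. Their mean ratios differed by a median of 0.20 log2 units, 608 of 626 lay on the same side of the reference, and 38 were more than 2-fold apart. Such pairs are not independent measurements, and they show only how far 2 probes of nearly the same target can differ on these arrays.

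Some probes could be placed on the mouse genome, because their whole sequence lies in the RefSeq promoter windows of 250 bases before to 50 bases after a gene's start (GRCm38.p6). Of all probes, 267 matched a window exactly, 127 in the sense and 149 in the antisense direction, some in both. Sense matches that reach past the start of a single gene numbered 40, of which 29 were tested, for 28 genes. Between 1 and 48 of a probe's 60 bases lie past the start, so part of each probe, often most of it, is upstream of the annotated transcript. A match gives a position, not proof that the signal is that gene's. In the oocyte pools 8 of the 29 were called higher and 10 lower, against 30.2% and 40.1% of all tested. In SN 7 were higher and 13 lower, against 33.5% and 35.9%. In NSN 6 were higher and 10 lower, against 34.1% and 36.7%.

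Rpl38, a protein of the large ribosomal subunit, was the gene with 2 such probes, which share 48 bases. The first lies at chr11:114668538-114668597 on the plus strand, reaching 18 bases past the start, and the second at chr11:114668526-114668585. They are shown because they read nearly the same target:
Z00032009-1: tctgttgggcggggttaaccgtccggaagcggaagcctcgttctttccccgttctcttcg
Z00075310-1: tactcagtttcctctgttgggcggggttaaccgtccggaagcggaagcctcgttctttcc
The first probe's ratio was -4.25 and -4.01 on the oocyte arrays, -1.98 and -1.79 on SN, and -1.96 and -2.11 on NSN. The second, Z00075310-1, gave -5.93 and -5.58 on the oocyte arrays, -1.70 and -1.26 on SN, and -1.41 and -2.20 on NSN. Both put the target below the reference in every pool. Cy3 was well above background on 1 oocyte array for the first probe and on neither for the second, so their oocyte ratios are largely limits and their sizes cannot be compared there. Tpt1, a growth-related protein whose message is under translational control (chr14:75845205-75845264), was close to the reference in the oocyte pools, at -0.10 ± 0.21 (SE), and lower in SN (-1.91) and NSN (-1.96) with limma adjusted p of 0.00086 and 0.00076.

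Other placed probes are given with their own values by group. The probe at Ntng1, a netrin-family protein of axon guidance (chr3:110143430-110143489), had ratios of -2.85 and -2.36 on the oocyte arrays, 5.77 and 5.11 on SN, and 4.07 and 3.60 on NSN. Its Cy3 signal was not well above background on either oocyte array, so the oocyte ratios are limits. The probe at Aurkc, a kinase of meiotic chromosome segregation (chr7:6995334-6995393), had a ratio of -1.50 in the oocyte pools, -0.14 in SN and -0.20 in NSN. SN and NSN differed from the oocyte pools by 1.33 ± 0.17 (SE; limma, adjusted p = 0.0027). The probe at Hmgb2, a chromatin protein (chr8:57511788-57511847), had a ratio of 1.23 in the oocyte pools, -1.02 in SN and -0.43 in NSN. Only 5 of its bases lie past the start. The NSN arrays gave 0.42 and -1.27. Neither SN nor NSN passed the test against the reference (limma, adjusted p = 0.075 and 0.38). SN and NSN differed from the oocyte pools by -1.96 ± 0.51 (SE; limma, adjusted p = 0.027). The differences at Aurkc and Hmgb2 are for processed signal and rest on the larger shift of the oocyte arrays in dye normalization. The probe at Sycp2l, a relative of a synaptonemal complex protein (chr13:41114361-41114420), was detected in Cy3 on 4 arrays and in Cy5 on none. With no measured Cy5 signal its ratios are limits where Cy3 was detected. On oocyte array 2 and NSN array 2 its ratios, -0.04 and -0.14, equal the medians of the negative control spots and measure neither channel. The test of SN and NSN against the oocyte pools (limma, adjusted p = 0.336) includes those values. It therefore cannot decide whether the groups differ. Cfap410, a protein of cilia (chr10:77978615-77978674), had the lowest ratio of the placed genes in all 3 groups, at -6.08 ± 0.17 in oocyte, -8.04 ± 0.17 in SN and -8.49 ± 0.17 in NSN (SE). Some other placed probes had no measured Cy3 signal, such as Z00075310-1 at -5.76 in oocyte. Their ratios are limits, so which gene was the most depleted is not settled.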

How the data were processed

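RNA was measured on 2-colour 60-mer arrays. The authors deposited scanner intensity tables made with Agilent Feature Extraction 9.5.1.1, per the file headers, with background subtraction, linear and lowess dye normalization, and a log10 ratio of red over green. The match of probes to genes is not given in the sources used here. SN and NSN arrays had 2 scans, and the scan with more total signal was used. Control spots and uneven spots were left out and repeated spots averaged.

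The log2 ratio of deposited processed Cy3 over Cy5 was fitted with limma 3.58.1 (R 4.3.3) over all 6 arrays, each group mean tested against 0, for probes well above background in either channel on 2 or more arrays. Summaries per array were compared between channels by exact sign flips. The fit was tested on simulated data. Alternatives were normexp (offset 50) with loess, unnormalized signal, the other scans, other filters and fits, a replicate block and leaving out each array. The deposited value table, Cy3 on a log10 scale with values under 2 raised to 2, served as an alternative. Its column medians lie between 2.44 and 2.57; its centring is not stated.

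Named probes are the 2 at each end of each comparison: highest and lowest mean ratio among probes called alike in all groups and detected throughout; brightest in one channel alone; best mean rank per channel; and largest crossing. Placed probes were chosen after their values were seen. Members and lists were chosen with earlier results of these data known. Gene lists could not be used, since no gene names were given. The number of arrays limits the precision. Same-numbered pools did not deviate together.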

Additional observations from a re-analysis of the deposited data

Results flagged for a closer look

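On background-subtracted signal, before dye normalization, the share held by the 100 brightest probes differed between channels by 7.18 points in the oocyte pools (Cy3 minus Cy5), -5.61 points in SN and -5.78 points in NSN. Both oocyte arrays were positive and all 4 SN and NSN arrays negative. The difference between groups was not tested.

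The 835 probes above the reference in SN and NSN and below it in the oocyte pools, and the 300 probes the other way, had effects of opposite sign in different groups. They were chosen for calls on opposite sides, which fixes that difference, so it is a description.

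Control spots, which entered no comparison above, also gave Cy3 signal. The 32 spots of (+)E1A_r60_a22 were well above background in Cy3 at 100% on average over the 6 arrays, with a median ratio of 1.84 to 2.37 (log2 Cy3 over Cy5), while negative control spots reached 1.31% at most. The 10 spots of (+)eQC-39 averaged 63.3%: 0% on both oocyte arrays and 90% to 100% on the SN and NSN arrays, with Cy5 at 100% on every array.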

How the results depend on the processing

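With 2 pools a group and no gene names, depth is set by signal over background, and dim probes give limits rather than ratios. With background-subtracted signal and no centring, the oocyte calls moved to 2920 higher and 25520 lower, and with normexp and loess the lower calls moved to 5841. Without centring 3199 of the oocyte probes called higher by processed signal were called lower. Counts of calls without one array ran from 9469 to 9820 higher and 12150 to 12983 lower in oocyte, 9781 to 10995 and 10440 to 11645 in SN, and 10305 to 11182 and 10948 to 11885 in NSN. The Cy3 minus Cy5 difference in the 100-probe share was -1.40 points (p = 0.625 by exact permutation) with background-subtracted signal, -1.51 with mean signal and -0.88 for the 10 brightest. For the oocyte pools these were 7.18, 6.65 and 0.059 points. Without one array it lay between -7.23 and -6.39. A set of 5 arrays cannot give a p under 0.0625. The authors' deposited value table, over 25030 probes, put the mean Cy3 share at 16.1%, against 12.5% by processed signal over all probes. These are unlike sets of probes. Over the same 25030 probes the processed shares were 20.03% and 22.94% on the oocyte arrays and 11.75% to 12.48% on the others. The 4-fold tail difference (higher minus lower) was -0.059 points with both channels detected and 3.57 with normexp and loess, and 4.32 in oocyte, 2.93 in SN and 3.44 in NSN under the latter; with both channels detected it was 1.83 in oocyte. Without one array it lay between -7.43 and -5.82. The 16-fold difference was 1.32 and 2.09 under these settings, or 3.14 and 2.38 in oocyte, 0.59 and 2.07 in SN, and 0.24 and 1.83 in NSN. Without one array it lay between -1.24 and -1.002. The detection difference in SN was 319 without replicate 2 and -2724 without replicate 1. The cause of these changes was not tested. Named probes kept the sign of their mean ratio in all 176 combinations of probe and alternative tried. For crossing probes the sign was that of SN and NSN minus oocyte. Whether each named probe kept its call in each group was not checked. They are extremes by choice, which makes a change of sign unlikely. With the replicate number as a block, calls were 9830 and 13030 in oocyte, 10897 and 11666 in SN, and 11100 and 11918 in NSN, higher and lower, so no count moved by over 1.5 times; the deviations of same-numbered pools correlated at 0.01 to 0.08, so the numbers were not taken as pairs. Alternatives for gene lists were not run, since probes have no gene names here. The CpG settings, the overlap of the brightest probes before dye normalization and the settings for crossing probes were chosen after seeing the data.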
